A study of Mus musculus with 6 samples.

Results

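The metabotropic glutamate receptor genes *Grm5*, *Grm2*, *Grm3*, *Grm4*, *Grm7* and *Grm8* were followed in RNA-seq of the medial prefrontal cortex (mPFC). They were taken by symbol, and all 6 were found among the 18254 genes of the deposited table. The mice were male, on a C57BL/6J background, 10 to 12 weeks old, and either carried the EGFP-*Shank3* transgene (*Shank3* TG) or were wild-type (WT) littermates. The transgene adds Shank3, a scaffold protein of the excitatory postsynapse, to that of the normal gene, and the promoter that drives it is not given in the sources used here. There were 3 libraries of each genotype, called TG-1, TG-2, TG-3, WT-1, WT-2 and WT-3 here. Each came from the pooled mPFC of a pair of mice, so the replicates are pools and the p-values measure the spread between pools. The transgene was visible in *Shank3* itself, at 8374, 8173 and 6791 normalized counts in WT against 17470, 19004 and 16310 in *Shank3* TG. For *Shank3*, limma's adjusted p-value was 0.0643, which became 0.000437 once the replicate number entered as a block.

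Metabotropic glutamate receptors are G protein-coupled receptors of class C that bind glutamate in a large extracellular domain and tune synapses more slowly than the glutamate-gated channels do. Group I, to which mGluR5 (*Grm5*) belongs, couples to Gq and phospholipase C, sits mainly at the edge of the postsynaptic density, and is tied by Homer proteins to the Shank scaffold. Group II (mGluR2 from *Grm2* and mGluR3 from *Grm3*) and group III (mGluR4, mGluR7 and mGluR8 from *Grm4*, *Grm7* and *Grm8*) couple to Gi/o proteins and lower cAMP. They act largely as brakes on transmitter release, and mGluR3 is also known from astrocytes. Comparing the genotypes asked whether the mRNA of these receptors differed in a cortex with more *Shank3*.

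No receptor gene was called between the genotypes. In limma's test the adjusted p-value was 0.9999 for each of the 6, and 0 of 6 were under 0.05 before adjustment, against 0 (0%) and 336 (2.01%) of the 16714 genes tested. Blocking on the replicate number, 0 of 6 were called, against 0.00598% of all tested genes. The mean of the log2 values was higher in *Shank3* TG for 5 of the 6, as for 48.6% of all genes. The gene furthest from no difference was *Grm2*, which had the higher value in *Shank3* TG at each of the 3 replicate numbers, and the log2 fold changes of the other 5 lay between -0.043 and 0.10. All 6 receptor genes passed the filter, a mean of 5 or more normalized counts. Normalized counts are estimated reads per gene divided by a size factor for the library. They compare libraries but not genes of unequal length. Fold changes are differences of log2(normalized count + 1), *Shank3* TG minus WT.

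**Figure D1:**
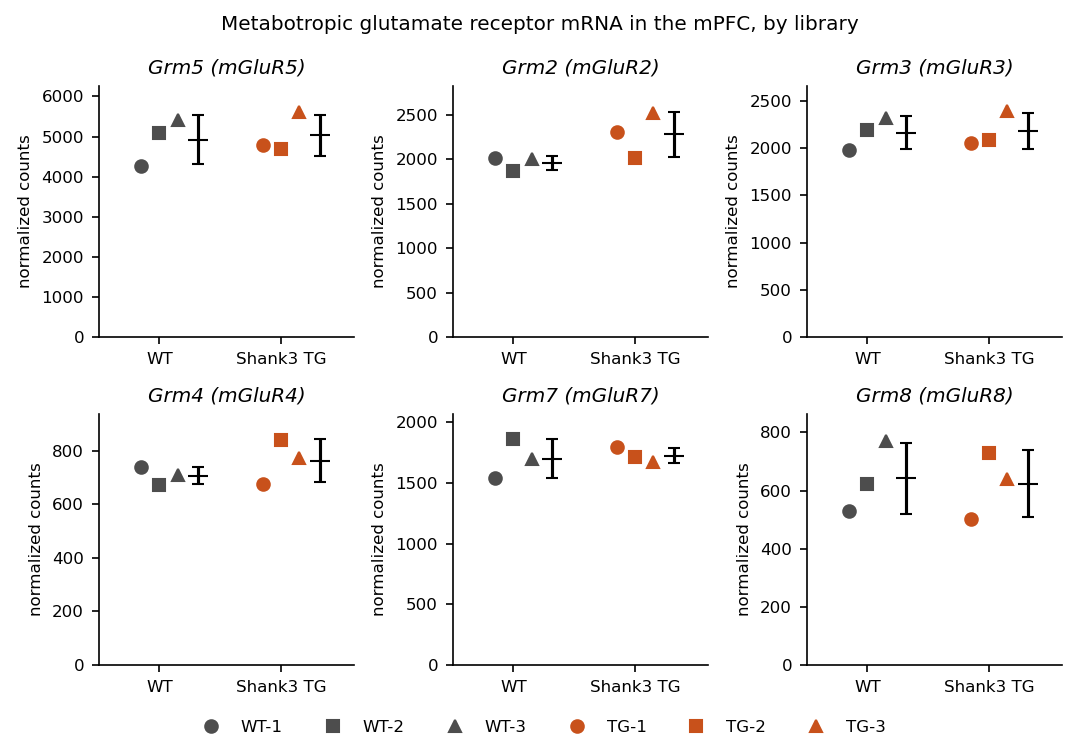
Normalized counts of the 6 receptor genes in each library, with WT in grey and *Shank3* TG in orange, symbols for the replicate number, and the mean with its SD (n = 3) as a black bar. The groups overlapped for every gene but *Grm2*, whose lowest *Shank3* TG library had 2018 and highest WT library 2013 normalized counts.

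*Grm5* encodes mGluR5, the group I receptor joined to Shank through Homer. The gene (ENSMUSG00000049583) lies on chromosome 7 from 87584168 to 88134907 on the plus strand of GRCm38, with 13 merged exons over 551 kb. WT-1, WT-2 and WT-3 gave 4255, 5094 and 5423 normalized counts, and TG-1, TG-2 and TG-3 gave 4779, 4681 and 5624. The library numbered 3 was the highest in both genotypes, and the groups overlapped across most of their range. The means were 4924 ± 602 (SD, n = 3) for WT and 5028 ± 518 for *Shank3* TG. This is a log2 fold change of 0.033 ± 0.11 (SE), with a 95% interval from a 0.852-fold to a 1.23-fold level in *Shank3* TG. Blocking on the replicate number narrowed the interval to 0.922-fold to 1.13-fold.

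*Grm2* encodes mGluR2, a presynaptic autoreceptor that lowers glutamate release. It lies on chromosome 9 from 106643095 to 106656082 on the minus strand (ENSMUSG00000023192), and at 13.0 kb it is the shortest gene of the 6. WT-1, WT-2 and WT-3 gave 2013, 1874 and 2003 normalized counts, and TG-1, TG-2 and TG-3 gave 2310, 2018 and 2523. All *Shank3* TG libraries were thus above all WT libraries, by a margin of a few counts between TG-2 and WT-1. Of the 6 receptor genes 1 showed this lack of overlap, found for 6.02% of all tested genes, and 2.91% of all genes had the *Shank3* TG libraries on top. The mean was 16.3% higher in *Shank3* TG, at 2283 ± 253 (SD, n = 3) against 1963 ± 77.6, and the log2 fold change was 0.21 ± 0.096 (SE). Its 95% interval was 0.994-fold to 1.35-fold. The p-value of *Grm2* before adjustment was 0.0577 in limma's test, and the two-sided exact permutation p-value was 0.1, the smallest that 3 libraries against 3 can give.

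At replicate numbers 1, 2 and 3, *Grm2* differed by 0.20, 0.11 and 0.33 on the log2 scale. Of all tested genes, 11.6% were likewise higher in *Shank3* TG at each number. In the blocked fit, limma gave *Grm2* a p-value of 0.00916 before and 0.708 after adjustment, and 4.98% of all genes were under 0.05 before adjustment in that fit. Leaving out TG-3 brought the log2 fold change of *Grm2* to 0.14, and leaving out both libraries numbered 3 brought it to 0.15. An antisense gene, *Gm28111*, shares 470 exonic bases with *Grm2* on the other strand. The libraries were stranded, but the strand setting of the quantification is not given in the sources used here.

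*Grm3* encodes mGluR3, the other group II receptor, which neurons and astrocytes both make. It lies on chromosome 5 from 9485541 to 9725170 on the minus strand (ENSMUSG00000003974) and has 1 annotated transcript. WT-1, WT-2 and WT-3 gave 1981, 2187 and 2318 normalized counts, and TG-1, TG-2 and TG-3 gave 2050, 2086 and 2392. As for *Grm5*, the library numbered 3 was highest in both genotypes and the groups overlapped. *Grm3* had the smallest change of the 6, 0.0090 ± 0.094 (SE) on the log2 scale, and 92.9% of all tested genes had a larger one in absolute size. Its 95% interval was 0.865-fold to 1.17-fold.

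Within group II, the ratio of *Grm2* to *Grm3* normalized counts was 1.02, 0.857 and 0.864 in WT-1, WT-2 and WT-3 and 1.13, 0.967 and 1.05 in TG-1, TG-2 and TG-3. Within each replicate number the *Shank3* TG library had the higher ratio, while the groups as a whole overlapped. This ratio was formed after the values of both genes had been seen and was not tested.

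*Grm4* encodes mGluR4, best known from the cerebellum and the inputs to the striatum and pallidum. It lies on chromosome 17 from 27422387 to 27521403 on the minus strand (ENSMUSG00000063239). WT-1, WT-2 and WT-3 gave 738, 674 and 711 normalized counts, and TG-1, TG-2 and TG-3 gave 677, 839 and 774. TG-2 was the highest library and WT-2 the lowest, so that the difference at replicate number 2 was 0.32 on the log2 scale, against -0.12 and 0.12 at numbers 1 and 3. *Grm4* had a log2 fold change of 0.10 ± 0.10 (SE), and one of 0.034 without TG-2. For *Grm4*, limma's p-value before adjustment was 0.336. Its 95% interval was 0.913-fold to 1.27-fold.

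*Grm7* encodes mGluR7, the low-affinity receptor of the active zone, and is the largest gene of the 6, with 922 kb on chromosome 6 from 110645581 to 111567230 (plus strand, ENSMUSG00000056755). WT-1, WT-2 and WT-3 gave 1542, 1865 and 1694 normalized counts, and TG-1, TG-2 and TG-3 gave 1793, 1709 and 1671. The *Shank3* TG libraries all lay inside the range of the WT libraries. *Grm7* had a log2 fold change of 0.024 ± 0.089 (SE), with a 95% interval of 0.882-fold to 1.17-fold. The antisense gene *Gm20387* shares 130 exonic bases with *Grm7*.

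*Grm8* encodes mGluR8, a presynaptic receptor of high glutamate affinity. It lies on chromosome 6 from 27275119 to 28135178 on the minus strand (ENSMUSG00000024211), and *Mir592* shares 96 bases with its exons. WT-1, WT-2 and WT-3 gave 530, 624 and 772 normalized counts, and TG-1, TG-2 and TG-3 gave 501, 729 and 641. Of the 6 genes it varied most between libraries, with a coefficient of variation of 19.0% in WT and 18.5% in *Shank3* TG, and its highest library had 1.54 times the value of its lowest. The log2 fold change of *Grm8* was -0.043 ± 0.18 (SE), and the 95% interval of 0.730-fold to 1.29-fold was the widest of the 6.

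**Figure D2:**
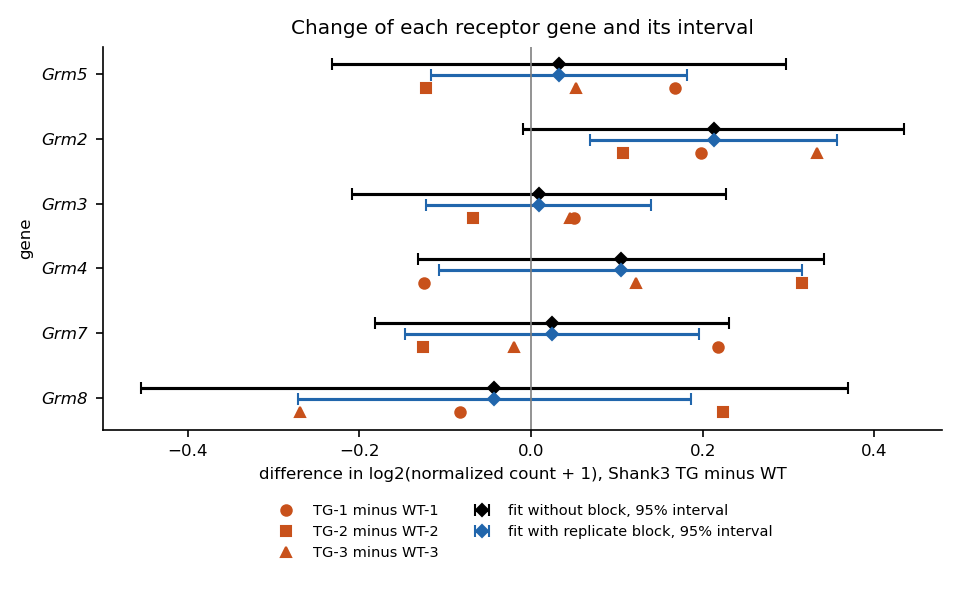
Log2 fold change of each receptor gene, *Shank3* TG minus WT, with its 95% interval from the fit without the replicate number (black) and with it as a block (blue), and below them the difference at each replicate number (orange). The orange points lie on both sides of 0 for every gene but *Grm2*, where they are 0.20, 0.11 and 0.33.

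Levels of different genes were compared per length, as normalized counts per kb of merged exons averaged over the 6 libraries. On this scale *Grm3* came first with 711, then *Grm5* with 486, *Grm2* with 434, *Grm7* with 291, *Grm4* with 123 and *Grm8* with 63.9. *Grm5* and *Grm2* overlapped, with *Grm5* the higher of them in 5 of 6 libraries, and every other pair of neighbours kept its order in all 6 libraries without overlap. On the scale of merged exons, the group II pair made up 53.9% ± 1.40 (SD, n = 3) of the summed level in WT and 54.7% ± 1.31 in *Shank3* TG. *Grm5* made up 23.2% ± 1.36 and 22.7% ± 0.744, and the 3 group III genes together 22.9% ± 0.685 and 22.5% ± 1.98. The share of *Grm2* was 19.5% ± 1.71 in WT and 21.6% ± 1.41 in *Shank3* TG, with overlap between the groups.

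The order at the top and the shares of the summed level depended on the length used. The merged exons span 3.05 kb for *Grm3* and 10.2 kb for *Grm5*. Per kb of the longest coding sequence, *Grm5* came first with 1379, ahead of *Grm3* with 822 and *Grm2* with 812. Per kb of the longest coding transcript, *Grm3* again led with 711 against 618 for *Grm5*. Per kb of the mean coding transcript, *Grm5* had 929 and *Grm7* 843, and *Grm3* followed with 711. Of the summed mean level, *Grm5* made up 23.0% per kb of merged exons and 33.4% per kb of the longest coding sequence. *Grm3* went from 33.7% to 19.9% in turn, and *Grm2* from 20.6% to 19.6%. The share of *Grm7* was 13.8% per kb of merged exons and 23.0% per kb of the mean coding transcript. Under all 4 lengths *Grm4* and *Grm8* were the lowest, and they exchanged places between them. These are levels of mRNA, and receptor protein was not measured.

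**Figure D3:**
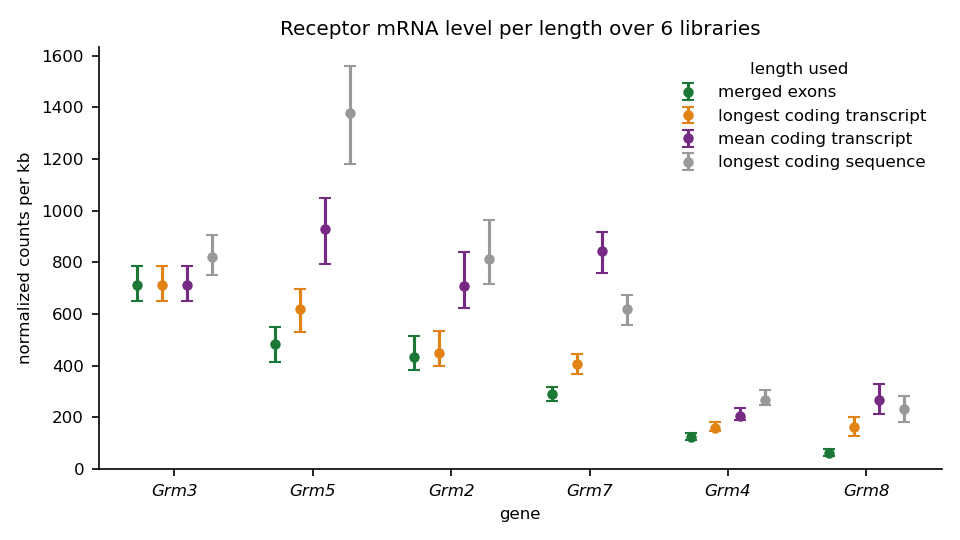
Normalized counts per kb for each receptor gene under 4 definitions of length, as the mean of the 6 libraries with bars from the lowest to the highest library. *Grm3* leads per kb of merged exons (711) and *Grm5* per kb of the longest coding sequence (1379), while *Grm4* and *Grm8* stay lowest under all 4.

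Part of the spread between libraries followed the replicate number. *Grm5* and *Grm3* both had their highest value in the library numbered 3 in each genotype, as did 24.9% of all tested genes. Against the mean of libraries 1 and 2 on the log2 scale, *Grm5* was higher by 0.22 in WT-3 and 0.25 in TG-3, and *Grm3* by 0.16 and 0.21. *Grm2* was higher by 0.044 in WT-3 and by 0.22 in TG-3, and *Grm8* by 0.42 and 0.085. *Grm4* and *Grm7* moved by at most 0.067 in either genotype.

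Over the 6 libraries, *Grm5* and *Grm3* had a Pearson r of 0.974 in log2 values, given as a description of libraries that share these replicate numbers. The other 14 pairs of receptor genes had values between -0.47 and 0.61. *Grm6*, a receptor of retinal bipolar cells that is not one of the 6, gave 4.12, 4.42 and 19.8 normalized counts in WT and 4.38, 7.37 and 16.7 in *Shank3* TG.

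**Figure D4:**
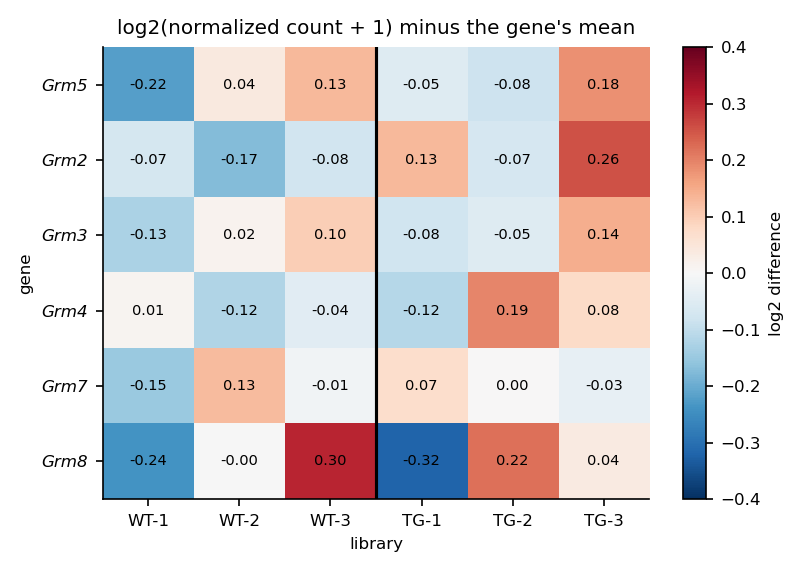
Difference of log2(normalized count + 1) from the gene's mean over 6 libraries, for the 6 receptor genes, with WT at the left and *Shank3* TG at the right. *Grm5* and *Grm3* are highest in WT-3 and TG-3, *Grm2* is above its mean in TG-1 and TG-3 only, and *Grm8* runs from -0.32 in TG-1 to 0.30 in WT-3.

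Some markers of cell types also differed by replicate number or genotype. The summed level of 7 excitatory neuron markers was 256472 in WT-3 and 261218 in TG-3, against 195461 to 220633 in the other 4 libraries, a sum carried mostly by *Camk2a* and *Nrgn*. Of the 7, 5 were highest in the library numbered 3 in both genotypes, and *Tbr1* and *Slc17a7* were not. The 9 astrocyte markers summed to 44676 in WT-3 and 43443 in TG-3, against 48358 to 52621 elsewhere, with 6 of the 9 lowest in the library numbered 3 in both genotypes and 1, *Sox9*, highest there. The 6 microglia markers summed to 8218 and 7817 against 8906 to 10509, with 4 of the 6 lowest there. The part of these cell types in the pattern of *Grm5* and *Grm3* was not tested. All markers of the excitatory neuron and astrocyte lists were above 0 in every library, and 0 of these 16 genes had p under 0.05 before adjustment between the genotypes. The 8 oligodendrocyte markers summed to 60988 to 71388 in WT and to 42045 to 54726 in *Shank3* TG, without overlap, and 7 of the 8 had a lower level in *Shank3* TG with p under 0.05 before adjustment. Their part in the receptor values was not tested either. In bulk tissue, fewer cells of a type and less RNA per cell cannot be told apart.

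Olfactory bulb markers, 6 genes in all, summed to 1515 in TG-2 and to between 253 and 481 in the other 5 libraries. Most of the sum in TG-2 came from *Cdhr1* and *Doc2g*, at 720 and 386 normalized counts. *Dlx2* was not highest there, with 136 in TG-2 against 144 in TG-3 and 153 in WT-3. *Grm4* had its highest value of all 6 libraries in TG-2 and *Grm8* its highest of the *Shank3* TG libraries, and the part of the olfactory bulb in these values was not tested. Without TG-2 the log2 fold change of *Grm8* was -0.16 and that of *Grm2* was 0.30. The 7 striatal neuron markers summed to 4350 to 4654 in WT and 4442 to 4767 in *Shank3* TG, a sum carried mostly by *Ppp1r1b* and *Penk*. One by one, 3 of the 7 had a higher and 4 a lower value in *Shank3* TG (median -0.077 on the log2 scale). *Adora2a* was lower without overlap of the groups. The 6 choroid plexus and ependyma markers summed to 645 in TG-3 and to 186 to 331 in the other 5 libraries, and 3 of the 6 had a higher and 3 a lower value in *Shank3* TG. *Ttr*, the largest part of the sum in TG-3 and TG-1, gave 14.3, 12.6 and 41.7 normalized counts in WT and 127, 22.9 and 445 in *Shank3* TG, higher within each replicate number but with overlap. *Foxj1*, of the same list, gave 103, 115 and 177 in WT and 77.8, 86.9 and 93.4 in *Shank3* TG, lower without overlap. Before adjustment, limma's p-values were 0.0382 for *Ttr* and 0.0328 for *Foxj1*, and neither was called. The part of these cells in the receptor values was not tested.

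For each receptor gene, the 3 genes with the most similar log2 values over the 6 libraries were taken from 12345 others that averaged 100 or more normalized counts. These were *Nanos1*, *Plekhm3* and *Dab1* for *Grm5* (r between 0.995 and 0.999), and *Rad50*, *Pigh* and *Rspo3* for *Grm3* (0.996 to 0.998). For *Grm2* they were *Dhrs7b*, *Il17rd* and *Entpd6* (0.974 to 0.985). For *Grm4* they were *Tulp4*, *Shmt2* and *S100a13* (0.986 to 0.995), for *Grm7* *Gdap2*, *Magi3* and *Rbsn* (0.979 to 0.992), and for *Grm8* *Zfp92*, *Syne4* and *Mtrr* (0.987 to 0.991). Each r rests on only 6 points. An r above 0.9 was reached by 501 genes for *Grm3* and 330 for *Grm5*, both high in the libraries numbered 3, and by 32 to 98 for the other receptor genes.

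The genes around the receptors were read from 5 lists, of which 78 of 79 genes were tested. In limma's test 0 of the 78 were called in either direction, and 0 had p under 0.05 before adjustment. In the fit with the block 0 were called, and 2 (2.56%) had p under 0.05 before adjustment, a smaller share than the 4.98% of all tested genes. The groups did not overlap for 3 of the 78 genes (3.85%, against 6.02% of all tested genes), namely *Slc17a7*, *Slc17a6* and *Siah1a*. The median log2 fold change over all tested genes was -0.0037.

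The list of group I partners and the Gq cascade held 20 genes, with a median log2 fold change of 0.034, 14 of them with a higher and 6 with a lower value in *Shank3* TG. The genes with the highest mean normalized counts in it were *Ncdn*, which encodes the mGluR5-binding protein neurochondrin (log2 fold change 0.10 ± 0.077, SE), *Itpr1*, the IP3 receptor of the endoplasmic reticulum (0.021 ± 0.10), and *Prkcb*, a protein kinase C (0.034 ± 0.072). The Homer genes, named for their role after their values had been seen, had log2 fold changes of 0.012 for *Homer1*, 0.034 for *Homer2* and 0.063 for *Homer3*. *Homer1* gave 6397, 9147 and 5920 normalized counts in WT and 7426, 8203 and 5832 in *Shank3* TG, a wide spread within each genotype. *Siah1a*, a ubiquitin ligase that binds group I receptors, gave 544, 564 and 547 normalized counts in WT and 536, 508 and 494 in *Shank3* TG. For *Siah1a*, limma's p-value before adjustment was 0.238.

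The Gi/o cascade, with 25 genes of G protein subunits, adenylyl cyclases, GIRK channels and RGS proteins, had a median log2 fold change of 0.032, with 19 genes higher and 6 lower. Its gene with the highest mean normalized count was *Adcy1*, the calcium-stimulated adenylyl cyclase, with a log2 fold change of -0.095 ± 0.073 (SE). Next came *Gnao1*, the G protein subunit alpha o, with 0.043 ± 0.19, and *Rgs4*, which speeds the shut-off of Gi/o and Gq signals, with 0.12 ± 0.12. The 8 partners of group II and III receptors had a median of 0.0019 and lay between -0.040 and 0.068. Highest in mean normalized count among them were the phosphatase gene *Ppm1a* (0.0039), *Elfn2* (0.038), from a family whose proteins bind group III receptors across the synapse, and *Pick1* (0.068), whose product binds the tail of mGluR7.

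The 15 genes of ligand supply and clearance had a median log2 fold change of 0.0025, with 8 higher and 7 lower. *Slc1a2*, the main astrocytic glutamate transporter, differed by -0.016 ± 0.091 (SE) on the log2 scale and *Glul*, glutamine synthetase, by -0.018 ± 0.14. *Slc17a7*, which loads glutamate into vesicles of cortical excitatory neurons, gave 39218, 40002 and 39794 normalized counts in WT and 42302, 42776 and 45669 in *Shank3* TG. The groups of *Slc17a7* did not overlap, with a log2 fold change of 0.13 ± 0.072 (SE). Before adjustment, limma's p-value for *Slc17a7* was 0.0983. *Slc17a6*, the vesicular transporter of many subcortical neurons, gave 378, 418 and 412 normalized counts in WT and 366, 371 and 337 in *Shank3* TG, with a log2 fold change of -0.17 ± 0.097 (SE).

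The 2 list genes with p under 0.05 before adjustment in the fit with the block, fewer than the share over all genes would give, were both from ligand supply and clearance, and neither was called. *Folh1* encodes the peptidase that cleaves N-acetylaspartylglutamate, a peptide agonist of mGluR3. It gave 113, 154 and 91.3 normalized counts in WT and 84.4, 113 and 53.7 in *Shank3* TG, lower at each replicate number but with overlap, and its log2 fold change was -0.54 ± 0.30 (SE). For *Folh1*, limma's p-value before adjustment was 0.112 without the block and 0.0072 with it, where the adjusted value was 0.645. *Slc7a11*, the cystine and glutamate exchanger, had a log2 fold change of 0.16 ± 0.12 (SE), with limma p-values of 0.228 and 0.039 in turn and an adjusted value of 0.994 with the block.

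The class C relatives, with 10 of 11 genes tested, had a median log2 fold change of 0.030, with 7 higher and 3 lower. The GABA-B receptor genes *Gabbr1* and *Gabbr2* had the highest mean normalized counts, with log2 fold changes of -0.013 ± 0.086 (SE) and 0.036 ± 0.099, and *Gpr158* followed with 0.011 ± 0.10.

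**Figure D5:**
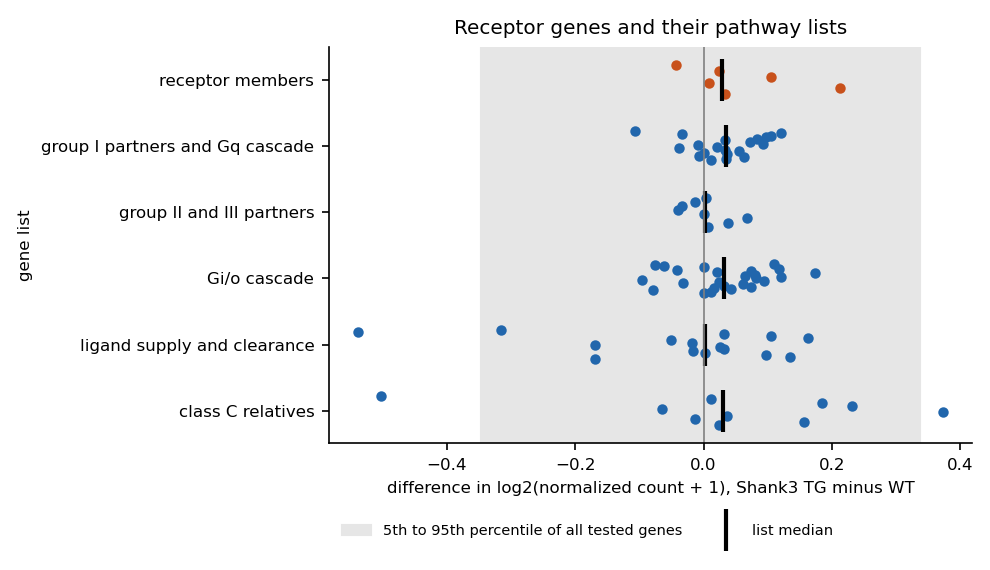
Log2 fold changes, *Shank3* TG minus WT, of the 6 receptor genes (orange) and of the tested genes of 5 pathway lists (blue), with the median of each as a black tick. The grey band runs from the 5th to the 95th percentile of all tested genes (-0.35 to 0.34), and the 6 receptor genes all lie inside it.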

How the data were processed

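Reads were quantified by the authors with Salmon 0.9.1, corrected for GC bias, against GRCm38, and brought to gene level. The authors then divided the counts by DESeq2 size factors, and the deposited signal is these normalized counts, for 18254 genes, summing to between 28363967 and 29447717 per library. They are not whole (at most 23.2% of a library's values between 0 and 20 lay within 2% of a multiple of one step), so reads were not recovered, no counting interval was given, and the count model of the study was not used.

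The 16714 genes averaging 5 or more normalized counts were tested on log2(normalized count + 1) with limma 3.58.1 in R 4.3.3 (eBayes with a trend, genotype alone, two-sided, Benjamini-Hochberg adjustment over all tested genes, threshold 0.05). Names, positions and lengths came from GENCODE M21 on GRCm38, which held 18215 of the genes.

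Replicate numbers were taken to pair the libraries. Deviations from the genotype mean correlated across genes at 0.302, 0.332 and 0.616 for numbers 1, 2 and 3. Other combinations reached at most 0.266, that of TG-1 with WT-2, so only number 3 stood well above them. The sample labels give numbers and do not name pairs, and these correlations came from the same values as the blocked fit. The study's mapping summary sets the libraries numbered 3 apart by a lower mapping rate.

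The receptor genes, lists and tests were chosen with earlier results of these data known. Also named were *Shank3*, the 3 genes of each pathway list with the highest mean normalized count, list genes with p under 0.05 before adjustment, and the 3 genes most similar to each receptor gene, and, after their values were seen, *Grm6*, the Homer genes, *Siah1a* and *Slc17a6*.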

Additional observations from a re-analysis of the deposited data

How the results depend on the processing

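The 6 receptor genes were recomputed under 18 alternatives each, 108 values in all, of which 98 kept their direction and 0 passed the threshold of 0.05 after adjustment in limma's test. Alternatives were a pseudocount of 0.1 or 5, no filter or one at 50, upper quartile scaling, quantile normalization, eBayes without a trend or with the robust option, the replicate block, a term for the libraries numbered 3, an empirical null with z-scores divided by their interquartile width, each library left out, and, chosen after the data had been seen, both libraries numbered 3 left out. *Grm2* and *Grm4* kept their direction throughout, with log2 fold changes of 0.14 to 0.30 and 0.034 to 0.19. With each library left out in turn, *Grm5* ran from -0.069 to 0.11, *Grm3* from -0.061 to 0.061, *Grm7* from -0.044 to 0.093 and *Grm8* from -0.17 to 0.11. The log2 fold change reversed to -0.0041 for *Grm7* and 0.11 for *Grm8* without TG-1, to -0.051 for *Grm5* and -0.061 for *Grm3* without TG-3, to -0.069 for *Grm5*, -0.053 for *Grm3* and -0.044 for *Grm7* without WT-1, and to 0.099 for *Grm8* without WT-3. Without both libraries numbered 3 it was -0.0091 for *Grm3* and 0.070 for *Grm8*. The cause was not tested.

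The number of genes called over the whole table, 0 of 16714, was 1 (*Shank3*) with upper quartile scaling, the robust option, the replicate block, the term for the libraries numbered 3 or without the libraries numbered 3, and ran from 0 to 1 with each library left out, where the 1 was *Shank3* without WT-3. It was 26 with the empirical null, under which *Grm2* had a limma p-value of 0.00945 before and 0.401 after adjustment. The paper, with DESeq2 and its own empirical null, called more genes from these libraries than any fit here. The count of called genes in the 5 pathway lists was 0 under all 18 alternatives. The replicate block changed no call of a receptor or list gene. The intervals given with each gene are not limits of detection, since *Shank3*, with a 2.27-fold level in *Shank3* TG, had a limma adjusted p-value of 0.0643.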
